A study of Mus musculus with 18 samples.

Results

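A set of 35 genes, of the 54232 counted in the mouse lacrimal gland (LG), had RNA in every NOD.H-2b mouse at several times the level of any BALB/c mouse, and stood at about the same level in NOD.H-2b at 2 and at 6 months of age. The members were chosen by their measured values. CPM is the count of a gene divided by the sum of its library and scaled to counts per 1e6, and a member had at least 0.5 CPM in the lowest of 9 NOD.H-2b mice, at least 8 times the highest of 9 BALB/c mice there, and a ratio of mean CPM at 6M to 2M in NOD.H-2b between 0.67 and 1.5. Nos1 met these limits but was left out by name. Ddc and names that begin with H2-, Klr, Ig, Tr, Scgb, Esp, Cyp, Snor or Zfp9 were also barred, but no such gene met the limits. The difference between strains and the ratio of 6M to 2M are therefore given below as descriptions, with no test.

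The libraries came from whole LGs of 18 male mice, 1 gland of 1 mouse each, with 3 mice in each of 6 groups. BALB/cJ (BALB/c), the control, and NOD.B10Sn-H2b/J (NOD.H-2b), a strain that develops inflammation of the LG, were each taken at 2, 4 and 6 months (2M, 4M and 6M), with no treatment in the labels. NOD.H-2b carries the H2 region of another haplotype on the NOD background and was not bred from BALB/c, so disease and strain of origin cannot be told apart. Libraries held between 49480781 and 103936830 counts, and in bulk tissue fewer cells of a type and less RNA per cell cannot be told apart.

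The LG secretes the watery part of tears, and its acinar and ductal cells release enzymes such as nucleases and kallikreins along with protease inhibitors. A processed pseudogene is a copy of an mRNA that was written back into the genome as DNA, usually without the introns and promoter of its source gene. Short reads from such a copy and from its source gene can be told apart only where the sequences differ.

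The annotation (GENCODE M21, genome build GRCm38) classed 15 members as protein coding genes, 14 as processed pseudogenes, 4 as long noncoding genes and 2 as small nuclear RNAs (snRNAs). Processed pseudogenes were 40% of the members, against 1.35% of the 13731 genes with at least 0.5 CPM in every NOD.H-2b mouse and 17.8% of all genes in the table. Protein coding genes were 42.9% of the members and 87.5% of those 13731 genes. With the strains exchanged, the same limits found 27 genes that were low in NOD.H-2b and stable in BALB/c, and 25.9% of these were processed pseudogenes. No test was made of these shares, since the genes were chosen by their values. The members lay on 16 chromosomes and none was within 250 kb of another. The closest pairs were Styk1 and Gm43974 at 587 kb, Ceacam10 and Ceacam2 at 731 kb, Hapln4 and Gm35572 at 1.66 Mb, and Glrb and Fgg at 2.09 Mb.

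**Figure D1:**
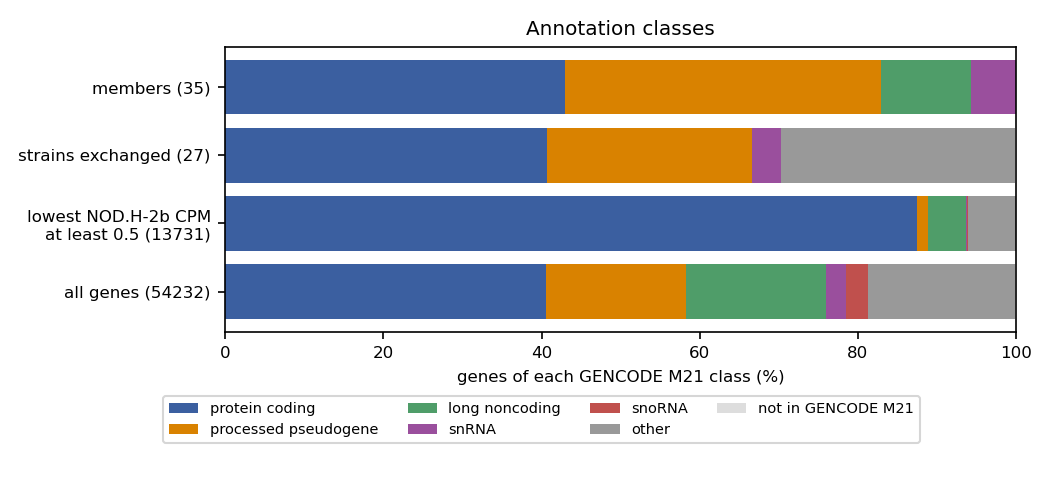
Share of each GENCODE M21 class, in percent of genes, in 4 sets of genes: the members (35), the set with the strains exchanged (27), the genes with a lowest NOD.H-2b CPM of at least 0.5 (13731) and all genes (54232). Processed pseudogenes take 40% of the member bar and 1.35% of the bar for the genes with at least 0.5 CPM.

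Each of the 14 processed pseudogenes matched the transcript of a protein coding gene over at least 82.1% of its length, with an identity between 88.2% and 100% and a median of 98.7%. The gene annotated as protein coding with the best match is called the source gene below. The name rests on the match alone, and descent was not tested. The sequences below show how few bases separate the 4 most abundant pseudogenes from their source genes. They are stretches of 120 bases of the GRCm38 reference, which was made from C57BL/6J mice and is the sequence of neither strain studied. Capitals mark the bases at which copy and source differ. Gm1821 (chr14:46084322-46084441, plus strand) differed from Ubb, which encodes polyubiquitin, at 6 bases of this stretch. Rps24-ps3 (chrX:79195307-79195426, plus strand) differed from Rps24, a protein of the small ribosomal subunit, at 3 bases. Vcp-rs (chrX:104346696-104346815, minus strand) differed from Vcp, an ATPase that extracts ubiquitinated proteins, at 3 bases. Gm13736 (chr2:87526145-87526264, plus strand) and Srp9, a subunit of the signal recognition particle, had the same bases throughout, so 1 line stands for both.
Gm1821: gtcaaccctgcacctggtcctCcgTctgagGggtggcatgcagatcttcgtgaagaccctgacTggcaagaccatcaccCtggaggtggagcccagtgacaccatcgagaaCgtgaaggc
Ubb: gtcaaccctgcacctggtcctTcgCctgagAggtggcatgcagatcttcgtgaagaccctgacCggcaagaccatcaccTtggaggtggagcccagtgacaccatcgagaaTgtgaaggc
Rps24-ps3: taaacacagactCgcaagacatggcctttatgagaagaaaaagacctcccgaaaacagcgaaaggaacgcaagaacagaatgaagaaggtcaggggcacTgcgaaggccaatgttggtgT
Rps24: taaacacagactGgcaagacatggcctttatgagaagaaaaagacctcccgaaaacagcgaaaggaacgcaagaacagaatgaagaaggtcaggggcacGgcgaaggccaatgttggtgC
Vcp-rs: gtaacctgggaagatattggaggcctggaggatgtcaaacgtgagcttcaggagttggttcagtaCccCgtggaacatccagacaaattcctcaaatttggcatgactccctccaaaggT
Vcp: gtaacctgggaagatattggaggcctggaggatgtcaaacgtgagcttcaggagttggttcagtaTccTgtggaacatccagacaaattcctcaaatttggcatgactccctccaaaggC
Gm13736 and Srp9: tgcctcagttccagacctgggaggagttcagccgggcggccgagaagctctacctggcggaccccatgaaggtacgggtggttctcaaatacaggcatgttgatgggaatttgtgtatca

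The snRNAs Gm25813 (chr8:52336915-52337105, minus strand) and Gm22973 (chr12:59040335-59040525, plus strand) are shown whole, because they differ at only 9 of 191 bases. Gm25813 was 99.0% identical to Rnu2-10, a gene of U2 snRNA, the part of the spliceosome that pairs with the branch point. Capitals mark the bases at which the pair differs.
Gm25813: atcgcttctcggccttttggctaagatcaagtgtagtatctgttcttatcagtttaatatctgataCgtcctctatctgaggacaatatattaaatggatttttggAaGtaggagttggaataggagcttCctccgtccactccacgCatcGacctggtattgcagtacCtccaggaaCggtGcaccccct
Gm22973: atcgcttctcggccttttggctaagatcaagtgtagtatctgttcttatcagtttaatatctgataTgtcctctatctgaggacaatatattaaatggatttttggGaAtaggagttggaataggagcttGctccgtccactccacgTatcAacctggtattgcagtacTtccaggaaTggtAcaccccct

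Among the protein coding members, Dnase1 and Fgg, both of which encode secreted proteins, had the highest levels per kb of exon. Dnase1 (ENSMUSG00000005980, chr16:4036942-4040024, plus strand), a secreted nuclease that degrades extracellular DNA, had a lowest, median and highest level of 1738, 2258 and 3009.7 CPM in NOD.H-2b and of 64.8, 97.9 and 194 CPM in BALB/c. Fgg (chr3:83007724-83015049, plus strand), the gamma chain of the clotting protein fibrinogen, stood at 326, 413 and 541 CPM in NOD.H-2b and at 4.02, 12.0 and 14.6 CPM in BALB/c. The strains did not overlap at either gene, which is what the choice of members required, and the fold of the means was 22.0 for Dnase1 and 40.2 for Fgg. Per kb of exon, Dnase1 stood at 779 and Fgg at 201 CPM, against a median of 7.11 CPM per kb over the 15 protein coding members.

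Mug1 (chr6:121838541-121889057, plus strand), a protease inhibitor of blood plasma, had 53.4, 65.3 and 99.4 CPM in NOD.H-2b and 0.940, 1.74 and 4.18 CPM in BALB/c. Apof (chr10:128268671-128270153, plus strand), an apolipoprotein, had 11.3, 21.9 and 27.6 CPM against 0.134, 0.525 and 0.785 CPM. Fgg, Mug1 and Apof are known as liver genes. A list of 8 liver markers (chosen after the members were seen) summed to medians between 2.06 and 2.93 CPM in the 3 NOD.H-2b groups and between 2.82 and 3.38 CPM in the 3 BALB/c groups. The defining marker, Alb, was at 0 in all 18 mice, and 5 of the 8 markers had at most 3 counts in every mouse. The source of these transcripts was not tested.

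Klk1b11 (chr7:43995877-43999875, plus strand), a glandular kallikrein, had no count in 7 of the 9 BALB/c mice and at most 0.0385 CPM there, against 10.7, 14.4 and 28.4 CPM in NOD.H-2b. Its spread within a group was wide, from 10.7 to 28.4 CPM among the 3 mice at 4M. Salivary gland also expresses kallikreins, and of a list of 6 salivary gland markers 4 had at most 3 counts in every mouse. The whole list summed to at most 1.55 CPM in any BALB/c mouse and 0.854 CPM in any NOD.H-2b mouse. Gland epithelium markers (Epcam, Krt8, Krt18, Krt7, Aqp5 and Ltf) were detected in every mouse and summed to between 1099 and 1790.3 CPM.

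The cell surface genes among the members included a pair from 1 adhesion family. Ceacam2 (chr7:25516042-25539857, minus strand) had 116, 143 and 175 CPM in NOD.H-2b and 0.0766, 0.258 and 0.339 CPM in BALB/c. Ceacam10 (chr7:24777206-24784657, plus strand), a secreted relative, had 4.19, 4.65 and 6.02 CPM against 0.0369, 0.0999 and 0.202 CPM. Neither overlapped between the strains, and the fold of the means was 582 for Ceacam2 and 51.0 for Ceacam10. Abcb1a (chr5:8660077-8748575, plus strand), a P-glycoprotein that pumps lipophilic compounds out of cells, had 23.5, 29.8 and 39.2 CPM in NOD.H-2b and 1.37, 1.67 and 2.05 CPM in BALB/c. Glrb (chr3:80843599-80913660, minus strand), the beta subunit of the glycine receptor, had 23.2, 29.8 and 34.9 CPM against 0.600, 1.41 and 2.22 CPM. Abcb1a and Glrb were above 0.5 CPM in every BALB/c mouse, as were Dnase1, Fgg, Mug1 and the pseudogenes Vcp-rs, Gm1821 and Rps24-ps3, and no other member was.

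Hapln4 (chr8:70083457-70090862, plus strand), which links hyaluronan to proteoglycans, had 22.7, 28.4 and 34.0 CPM in NOD.H-2b and at most 5 counts, or 0.0876 CPM, in any BALB/c mouse. Hapln4 and Glrb are known from the nervous system, and the summed level of 5 neuron markers was at most 0.339 CPM in any mouse, with 2 of the 5 at no more than 3 counts throughout. Styk1 (chr6:131299142-131353597, minus strand), a kinase-like membrane protein, had 7.03, 9.04 and 11.7 CPM against 0.0200, 0.0790 and 0.166 CPM. Paqr3 (chr5:97082329-97111596, minus strand), a membrane protein of the Golgi that retains Raf kinases, had 13.6, 15.7 and 20.6 CPM against 0.480, 0.627 and 0.946 CPM. Psmc3ip (chr11:101091823-101095436, minus strand), a cofactor of the recombinases of meiosis, had 4.20, 5.23 and 5.56 CPM against 0.0678, 0.295 and 0.480 CPM. The last coding members were 2610305D13Rik (chr4:147611937-147642513, minus strand; Zfp979 in GENCODE), a zinc finger gene with 9.78, 13.6 and 18.3 CPM against 0.040, 0.192 and 0.537 CPM, and Gm14403 (chr2:177498215-177509763, plus strand). Gm14403 had 10.7, 13.1 and 20.7 CPM in NOD.H-2b and 0.265, 0.508 and 1.12 CPM in BALB/c.

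The noncoding members included the largest fold of the means. Gm43974 (ENSMUSG00000107774, chr6:131940936-131941619, minus strand), a long noncoding gene, had 1214, 1403 and 1567 CPM in NOD.H-2b. It had no count in 6 BALB/c mice, and the highest BALB/c level, 1.62 CPM or 98 counts, was in 2M replicate 2, while the other BALB/c mice had at most 0.0745 CPM. The fold of the means was 7302 and rests on that 1 mouse, and its level per kb of exon, 2034 CPM, was the highest among the 35 members. Gm35572 (chr8:71752026-71781322, minus strand), another long noncoding gene, had 16.0, 17.7 and 22.0 CPM against at most 0.133 CPM in BALB/c. Against a floor of 3 counts in each BALB/c mouse, A730017L22Rik was higher by at least 114-fold in the NOD.H-2b mice, Gm22973 at least 48.6-fold and AC154381.1, with no count in any BALB/c mouse, at least 10.2-fold. Of the 35 members, 13 had no more than 10 counts in any BALB/c mouse.

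The processed pseudogenes ranged in mean NOD.H-2b level from 0.691 to 86.3 CPM. Vcp-rs (chrX:104345829-104348234, minus strand) had 76.0, 83.5 and 103.8 CPM in NOD.H-2b and 3.202, 4.23 and 5.01 CPM in BALB/c. Gm1821 (chr14:46084028-46085000, plus strand) had 63.8, 69.1 and 77.5 CPM against 1.39, 1.70 and 2.16 CPM, and Rps24-ps3 (chrX:79195047-79195448, plus strand) had 44.3, 49.7 and 72.0 CPM against 0.837, 1.09 and 1.76 CPM. All 3 were counted in every BALB/c mouse, at a few percent of the NOD.H-2b level. Next to the limits of the choice, Rpl31-ps15 and AC154381.1 were the members with the lowest NOD.H-2b levels, 0.516 and 0.612 CPM, and Eif3s6-ps2 and Gm13453 missed the limit at 0.405 and 0.364 CPM. The lowest NOD.H-2b level was 8.65 times the highest BALB/c level for Rpl31-ps15 and 8.66 times for Rps19-ps6, while Serpina3n and Serpina3m missed the limit at 7.96 and 7.34.

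**Figure D2:**
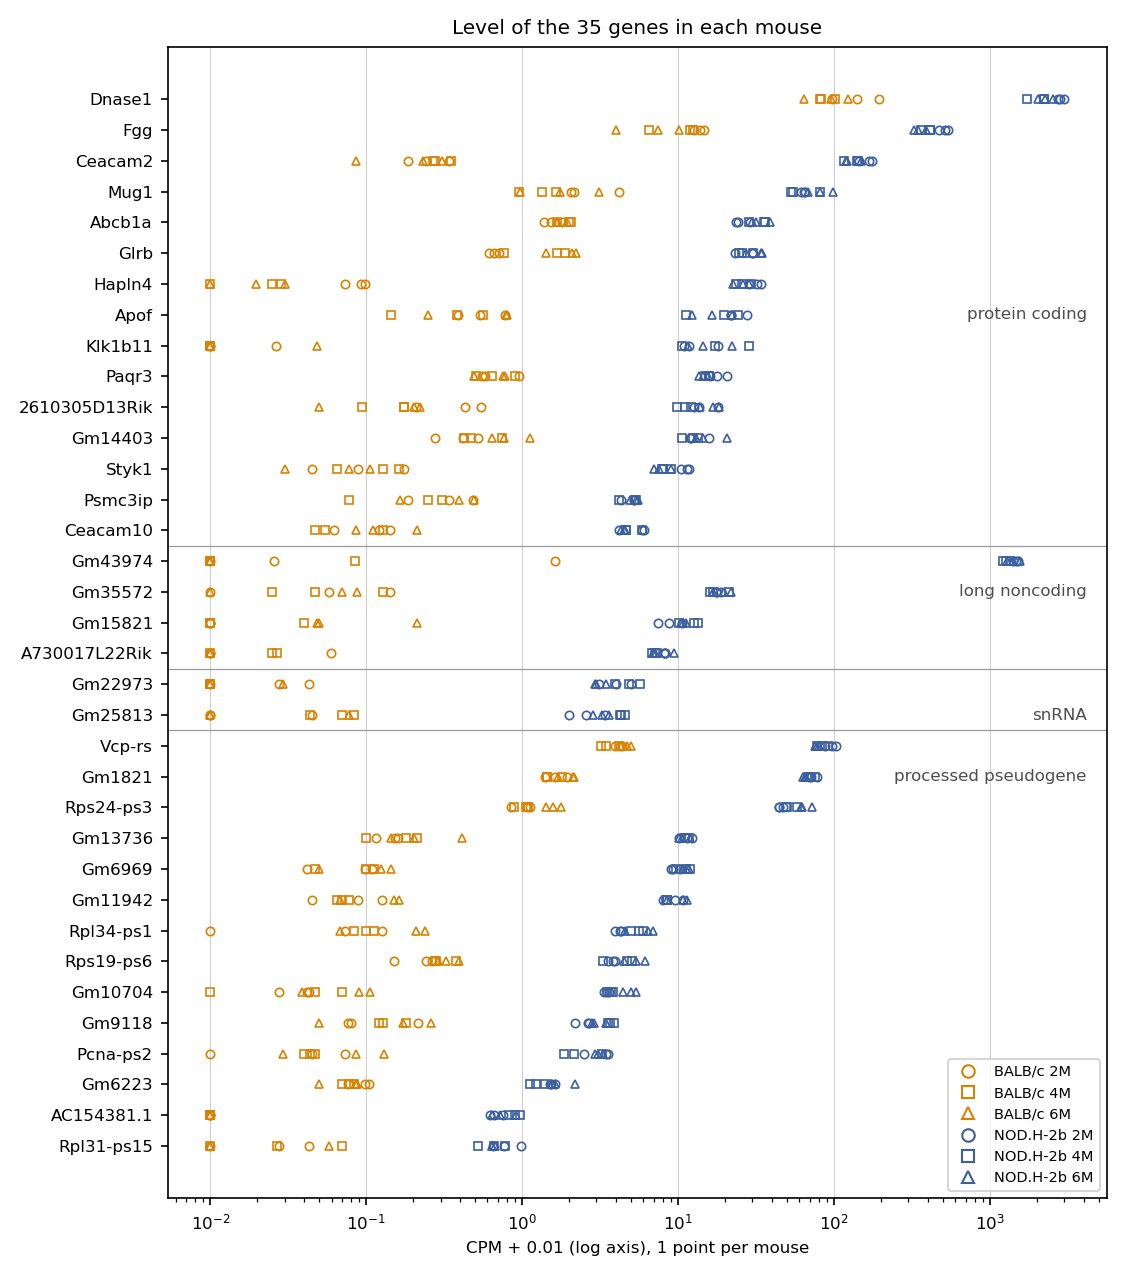
CPM plus 0.01 (log axis) of each member in each mouse, 1 point per mouse, with BALB/c in orange, NOD.H-2b in blue and the ages by the shape of the point, grouped by annotation class. No gene has overlapping strains, as the choice of members required, and Gm43974 spans the widest range, from 0 CPM in 6 BALB/c mice to 1567 CPM in NOD.H-2b.

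The ratio of 6M to 2M in NOD.H-2b, which the choice of members held between 0.67 and 1.5, had a median of 1.08, with 19 members higher at 6M and 16 lower. Rps24-ps3 (1.45) and Rpl34-ps1 (1.44) lay just inside the upper limit, and Phf11a (1.56) and Gm48832 (1.62) just outside. Fgg (0.697) and Styk1 (0.701) lay just inside the lower limit, and Klhl41 (0.650) and Dlx5 (0.628) just outside. The median ratio was 0.828 in the coding members and 1.14 in the pseudogenes. Over the same mice the markers of leukocytes moved with age: 6 B cell markers summed to a median of 11.8, 160 and 297 CPM at 2M, 4M and 6M in NOD.H-2b and to no more than 2.09 CPM in any BALB/c mouse, and 6 T cell markers to 18.9, 60.2 and 95.7 CPM and at most 5.09 CPM. Macrophage markers (8 genes) went from a median of 255 to 407 CPM and plasma cell markers (6 genes) from 538 to 1111 CPM, while gland epithelium markers went from 1723 to 1241 CPM. With 3 mice against 3, each of these exact permutation tests gave the smallest two-sided p possible, 0.1, and the part of these markers in the levels of the members was not tested. Within the plasma cell list, Jchain had 62.2 to 165 CPM at 2M and 596 to 827 CPM at 6M in NOD.H-2b. Mzb1, Prdm1 and Tnfrsf17 also rose, at lower levels. Xbp1 (336 to 427 CPM at 2M, 326 to 349 CPM at 6M) and Sdc1 did not rise. Within the macrophage list, Lyz2 had 73.0 to 86.5 CPM at 2M and 181 to 259 CPM at 6M in NOD.H-2b. Adgre1, Cd68, Csf1r, C1qa, C1qb and C1qc also rose, at lower levels. Mrc1 did not rise (30.0 to 37.2 CPM at 2M, 24.9 to 35.8 CPM at 6M).

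The 4M mice were not used for the limit on age, so 4M was compared with the mean of 2M and 6M in the 9 NOD.H-2b mice, to ask whether the members also held their level between those ages. The 4M mice did count in the lowest NOD.H-2b CPM, which set the floor and the limit between strains. A gene that fell far at 4M could therefore fail those limits, so the comparison is restricted for falls at 4M. The lowest CPM was in a 4M mouse for Rpl31-ps15 (0.516) and Rps19-ps6 (3.31), for example. All 35 members were tested, and 0 passed an FDR under 0.05 with a fold of at least 2 in the quasi-likelihood test of edgeR (p-values adjusted by Benjamini-Hochberg). Over all 18508 genes tested, 0.205% were called higher and 0.0108% lower, so a count of 0 among 35 was near the background. At an unadjusted p under 0.05 there were 6 members (17.1%), against 15% of all genes. The median log2 fold change of the members was 0.014, against 0.023 for all genes, and for 33 members the interval of 2 SE around the change lay within a 2-fold change. DESeq2's Wald test called none either at that fold, although Gm25813 and Gm9118 had an FDR under 0.05 there.

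Gm25813, the U2-like snRNA, had the largest difference. Its levels in NOD.H-2b were 3.40, 1.98 and 2.55 CPM at 2M, 4.22, 4.58 and 4.28 CPM at 4M, and 2.85, 3.23 and 3.61 CPM at 6M. All 3 mice at 4M were above the other 6, with a log2 fold change of 0.66 ± 0.17 (SE) and an adjusted p of 0.116. Gm9118, the Npm1 pseudogene, had 3.91, 3.56 and 3.68 CPM at 4M, above the 2.16 to 2.67 CPM at 2M and the 2.78 to 3.44 CPM at 6M (0.51 ± 0.15, adjusted p = 0.141). The other members with an unadjusted p under 0.05 were Gm22973 (0.54 ± 0.17), Gm15821 (0.38 ± 0.13) and Abcb1a (0.27 ± 0.092), with positive changes, and 2610305D13Rik (-0.41 ± 0.13). For 2610305D13Rik, the 3 mice at 4M had 11.1, 12.2 and 9.78 CPM, below the 12.7 to 18.3 CPM of the other 6. None of these 6 members passed the adjusted threshold.

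**Figure D3:**
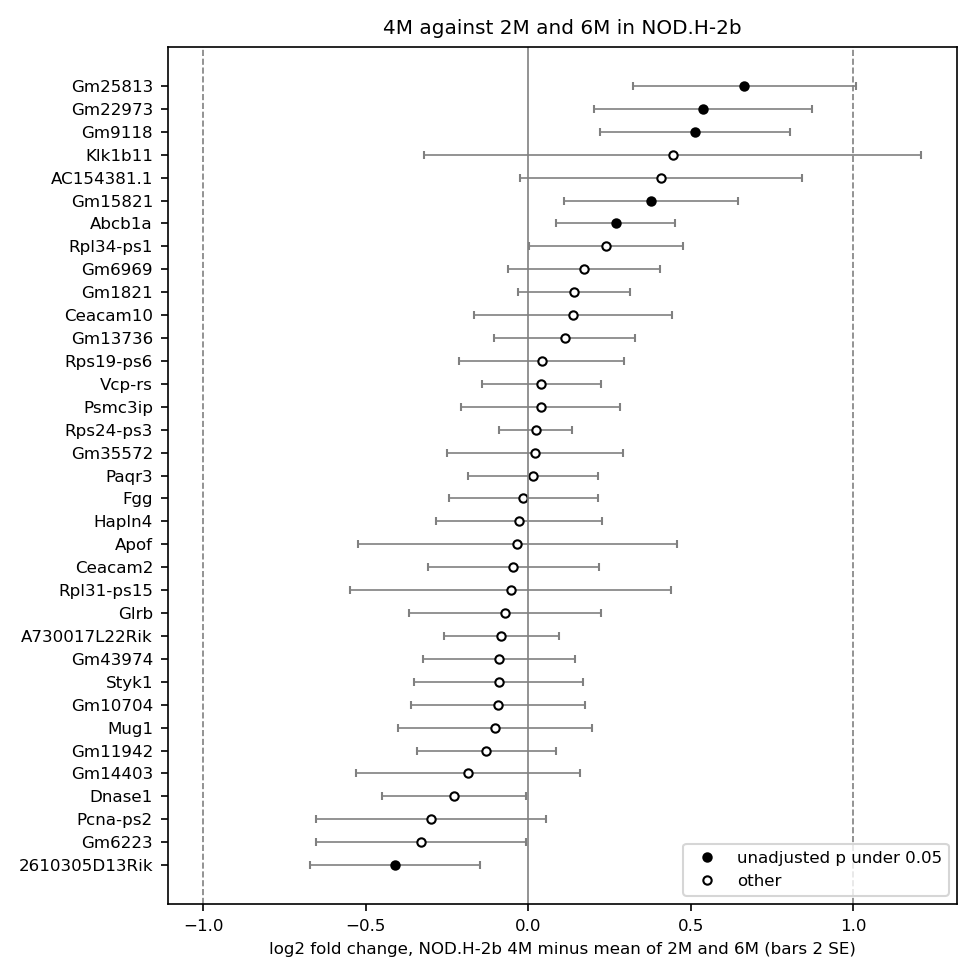
Log2 fold change of each of the 35 members at 4M against the mean of 2M and 6M in NOD.H-2b, with bars of 2 SE. Filled points have an unadjusted p under 0.05 (6 members), dashed lines mark a 2-fold change, and the values run from -0.41 for 2610305D13Rik to 0.66 for Gm25813.

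The source genes of the pseudogenes are not members, and their strain difference was taken from 1 edgeR fit of all 18 mice, averaged over the 3 ages. Of 14 source genes, 1 was called higher in NOD.H-2b and 3 lower (FDR under 0.05, fold of at least 2), against 17.6% and 5.19% of the 19117 genes tested. Srp9 had a lowest, median and highest level of 22.9, 25.4 and 29.0 CPM in NOD.H-2b and of 68.8, 72.6 and 73.9 CPM in BALB/c, with no overlap and a log2 fold change of -1.77 ± 0.031 (SE, adjusted p = 4.85e-19). Vcp stood at 138, 156 and 188 CPM against 299, 324 and 356 CPM (-1.31 ± 0.054, adjusted p = 2.29e-13). Rpl34, a protein of the large ribosomal subunit, stood at 31.1, 33.9 and 37.4 CPM against 62.9, 75.4 and 80.0 CPM (-1.39 ± 0.030, adjusted p = 1.28e-17). All 3 were lower in the strain in which their copies had the higher counts, with no overlap between strains. The copies' side of this was fixed by the choice of members. The source gene called higher was Gm10073, the best protein coding match of Gm11942. Gm10073 had 1.253, 1.47 and 1.84 CPM against 0.258, 0.385 and 0.560 CPM (1.74 ± 0.17, adjusted p = 2.45e-08). Whether Gm10073 or another gene is the true source of Gm11942 was not tested.

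At an FDR under 0.05 with no limit on the fold, 12 source genes stood lower in NOD.H-2b and 2 higher, where 33.1% of all genes were lower and 32.5% higher. On CPM by library total, a scale on which the median gene stood 0.23 (log2) higher in NOD.H-2b, 8 of the 14 source genes had the lower mean in NOD.H-2b and the other 6 the higher. Ubb had 253, 272 and 308 CPM in NOD.H-2b against 297, 337 and 367 CPM in BALB/c, a log2 fold change of -0.54 ± 0.045 that did not reach 2-fold. Rps24 had 124, 149 and 172 CPM against 171, 176 and 199 CPM (-0.56 ± 0.029).

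**Figure D4:**
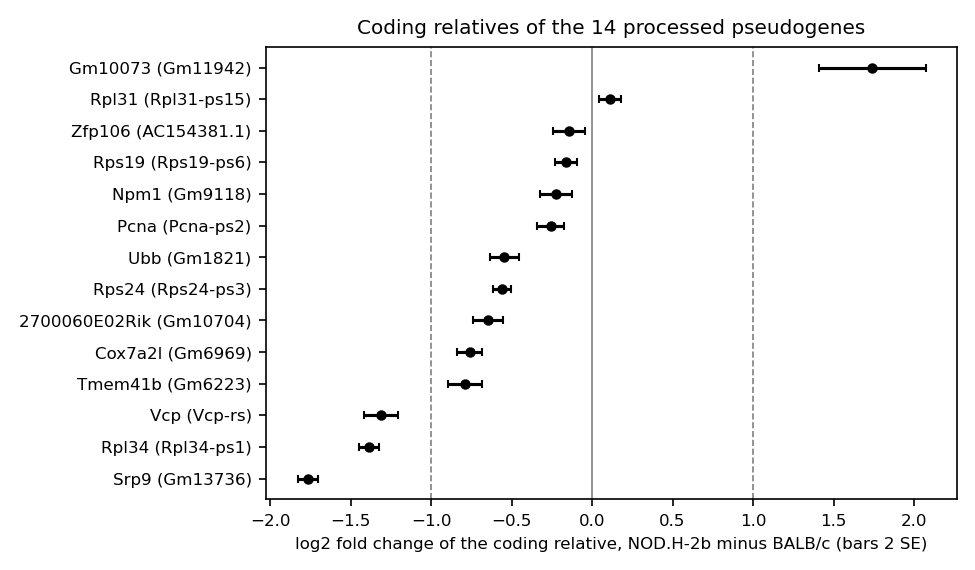
Log2 fold change (NOD.H-2b minus BALB/c, averaged over 3 ages, bars of 2 SE) of the source gene of each of the 14 processed pseudogenes, whose names stand in brackets. Dashed lines mark a 2-fold change, Srp9, Rpl34 and Vcp lie past the lower line and Gm10073 past the upper one.

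Within NOD.H-2b, the mean count of the copy came to between 0.164% of its source gene (AC154381.1 of Zfp106) and 621% (Gm11942 of Gm10073). Measured on single reads and reference transcripts, the share of a pseudogene that can be identified varied from none to all of it. The mate of a read, flanking sequence and bases particular to either strain were not considered. Among windows of 75 bases, the read length, 0% were unique to the copy among annotated transcripts for Gm13736 and for Rpl34-ps1, 14.9% for Gm1821, 22.6% for Vcp-rs, 54.6% for Rps24-ps3 and 100% for AC154381.1, with a median of 47.3% over the 14. Gm13736 nevertheless had 545 to 732 counts in each NOD.H-2b mouse and 6 to 20 in each BALB/c mouse. How reads with several matches were counted is not given in the sources used here, so the counts of these 14 pseudogenes and their source genes are uncertain. The same holds in part for Ceacam2, whose closest match was Ceacam1, since the share of unique windows was 61.4% there. The share was 54.4% for A730017L22Rik and 74.4% for Psmc3ip, each of which overlaps another gene on the genome. Windows shared with an overlapping gene, on either strand, were not separated from windows shared with a distant gene.

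Among the members that are not pseudogenes, 10 had a match over at least 50% of their length to another annotated transcript, and the 5 of these matches that had enough counts were tested. Of the 5, 4 were called lower in NOD.H-2b, opposite to the member, and 1 higher (5.19% and 17.6% of all genes). Ceacam1, 92.8% identical to Ceacam2 over the matched transcript, had 94.2, 127 and 159 CPM in NOD.H-2b and 217, 246 and 256 CPM in BALB/c (log2 fold change -1.25 ± 0.070, adjusted p = 6.75e-11), and reads that fit both Ceacam genes make this value and the fold of Ceacam2 uncertain. Gm14399, 91.4% identical to Gm14403, had 0.129, 0.166 and 0.390 CPM against 2.02, 2.35 and 3.18 CPM (-3.85 ± 0.17, adjusted p = 7.29e-13). Gm5886, which matched 64.3% of the length of Gm43974 at 69.2% identity and lies at chr6:133763999-133767404, had at most 0.0783 CPM in NOD.H-2b and 7.74, 9.67 and 18.3 CPM in BALB/c (-9.34 ± 0.24, adjusted p = 6.91e-16). Abcb1b, which encodes the other P-glycoprotein of the mouse, had 0.162, 0.264 and 0.627 CPM against 0.368, 0.811 and 1.36 CPM, with some overlap (-1.70 ± 0.19, adjusted p = 3e-07). Gm26316, the snRNA closest to Gm22973 at 95.8% identity, went the same way as the member, with 0.101, 0.404 and 0.599 CPM against 0.0332, 0.0799 and 0.184 CPM (1.78 ± 0.33, adjusted p = 9.83e-05).

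Other genes of the same families were tested in the same fit. A family here is the protein coding genes that share a coding member's symbol once closing digits and any closing letter are removed. Relatives with symbols of another form were not looked at. Of 46 relatives by symbol, 23 could be tested, 7 were called higher (30.4%) and 4 lower (17.4%), where 17.6% and 5.19% of all genes were. In the Klk1b family 3 of 5 tested genes were higher (Klk1b26, Klk1b27 and Klk1b1), and all 3 lie within 100 kb of Klk1b11. In the Abcb family of transporters, Abcb4 was higher, with 0.169, 1.76 and 6.19 CPM in NOD.H-2b against 0.0332, 0.115 and 0.194 CPM (log2 fold change 3.30 ± 0.27, adjusted p = 4.07e-09), and Abcb11 and Abcb1b were lower. In the Paqr family, Paqr8 (2.06 ± 0.29) and Paqr9 (1.82 ± 0.45) were higher and Paqr5 (-1.62 ± 0.23) lower. Of the Ceacam genes, Ceacam16 was higher, with 0.0528, 1.58 and 5.36 CPM in NOD.H-2b against at most 0.0298 CPM in BALB/c, and Ceacam1 lower. In the Dnase and Hapln families the only genes tested, Dnase2a (-0.39 ± 0.045) and Hapln3 (-0.89 ± 0.34), did not reach 2-fold, and Mug2 had too few counts to be tested. Ceacam1 and Abcb1b are counted as lower here, among the sequence matches above and among the neighbours below. The 3 Klk1b genes are likewise counted again among the neighbours, so these counts are not independent.

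The neighbourhood of the members was described by the genes within 100 kb that did not overlap one. Of 130 such genes tested, 39 (30%) were called higher in NOD.H-2b and 15 (11.5%) lower, where 17.6% and 5.19% of all genes were called, and their median log2 fold change was 0.014 against -0.016 for all genes. Neighbours were called higher at 17 of the 28 members with a tested neighbour and lower at 13. The long noncoding gene Gm15821 lies in the H2 region, which NOD.H-2b received from another strain, and 10 of its 11 tested neighbours were called higher. Without them, 29 of 119 neighbours (24.4%) were higher and 15 (12.6%) lower. Of the 39, 8 carry names that were left out of the members. Genes next to each other share loci and, in part, cells, so they are not independent.

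The neighbours called higher with the largest fitted changes included 2 kallikreins next to Klk1b11. Klk1b26 had 0.665, 1.23 and 4.24 CPM in NOD.H-2b and no count in BALB/c, and was at least 11.1-fold higher against a floor of 3 counts in each mouse. Klk1b1 had 0, 0.0848 and 1.68 CPM and no count in BALB/c (adjusted p = 0.038), a call that was lost without any 1 of the 3 NOD.H-2b mice at 2M (adjusted p of 0.232, 0.0512 and 0.0703 without replicates 1, 2 and 3). Cd177, a surface protein of neutrophils encoded next to Ceacam10, was at least 2.53-fold higher, with 0.152, 0.495 and 0.782 CPM. Gm13154, near 2610305D13Rik, was at least 4.22-fold higher, and H2-Ob, a chaperone of antigen presentation in B cells, had 0.281, 20.5 and 69.4 CPM against 0.0957, 0.231 and 0.611 CPM (5.76 ± 0.48, adjusted p = 2.17e-07). The strains overlapped at H2-Ob and Klk1b1 and not at Klk1b26, Cd177 or Gm13154. The B cell markers above stood higher in NOD.H-2b at 6M than at 2M, and their part in the level of H2-Ob was not tested.

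The neighbours called lower with the largest fitted changes lay next to 5 different members. Rasgrf1, a Ras exchange factor near Gm6223, had 0.0337, 0.183 and 0.283 CPM in NOD.H-2b and 1.37, 5.02 and 7.38 CPM in BALB/c (-5.24 ± 0.21, adjusted p = 2.69e-13). Gm5148, near Rpl31-ps15, had 0, 0.0333 and 0.162 CPM against 0.560, 1.01 and 1.15 CPM (-4.61 ± 0.36), and Gm9750, near Pcna-ps2, had 0, 0.0483 and 0.186 CPM against 0.240, 0.395 and 0.626 CPM (-3.55 ± 0.38). Against the floor of 3 counts, Gm5587 next to Ceacam2 was at least 3.65-fold lower and Rbm46os next to Fgg at least 2.24-fold lower. The strains overlapped at none of these 5 genes. Fgb, the beta chain of fibrinogen and the neighbour of Fgg, was called higher (2.92 ± 0.63, adjusted p = 0.000454) but at a low level, 0.0202, 0.119 and 0.995 CPM in NOD.H-2b and at most 0.0577 CPM in BALB/c.

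**Figure D5:**
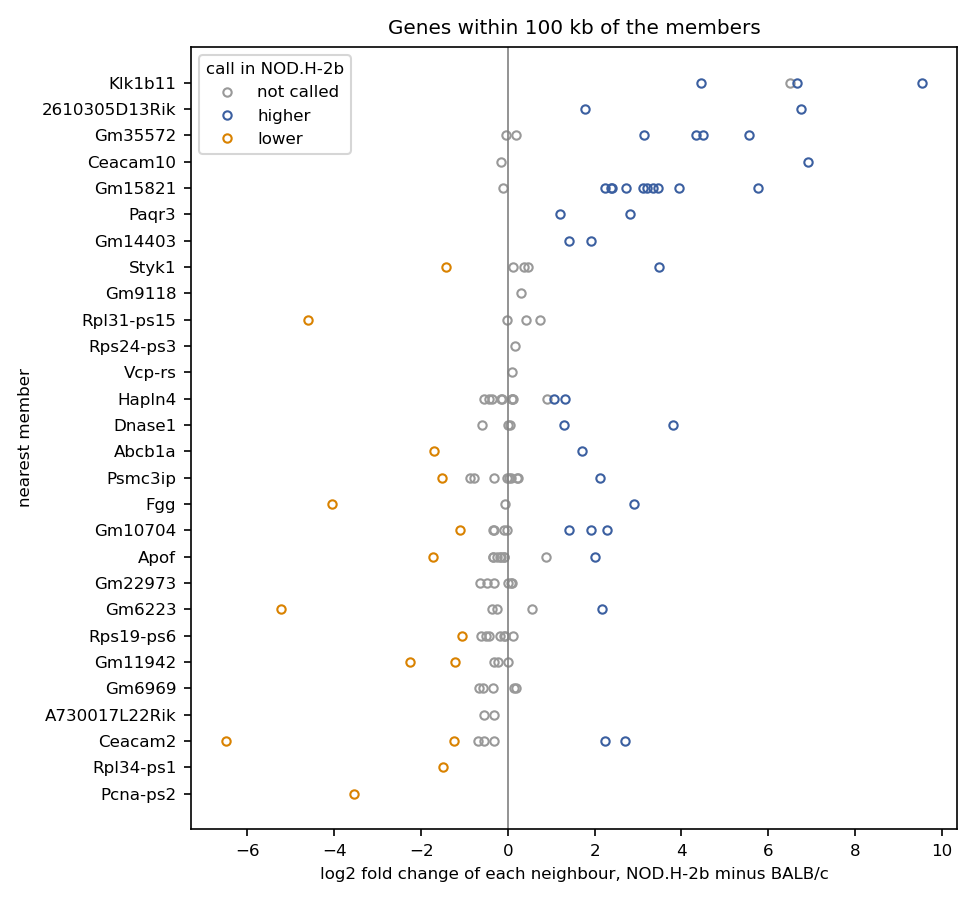
Log2 fold change (NOD.H-2b minus BALB/c, averaged over 3 ages) of each of the 130 tested genes within 100 kb of a member, on the line of the nearest member. Blue points are called higher (39), orange points lower (15), and values of genes with no counts in a strain, such as Klk1b26, are fitted values and not bounds.

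Several members overlap another gene on the genome, and without the strand setting of the counting their reads could not be told apart. Tap2, a peptide transporter of antigen presentation that overlaps Gm15821 on the other strand, had 17.3, 30.5 and 50.8 CPM in NOD.H-2b against 3.19, 5.00 and 7.73 CPM in BALB/c (2.33 ± 0.080, adjusted p = 3.63e-14). Bmp2k, which overlaps Paqr3, had 14.4, 19.98 and 47.7 CPM against 5.08, 5.70 and 7.97 CPM (1.75 ± 0.11, adjusted p = 9.75e-10). Gm15879, antisense to Dnase1, had 3.71, 4.56 and 6.10 CPM against 0.440, 0.678 and 0.862 CPM (2.49 ± 0.11, adjusted p = 6.33e-13), and Gm42684 within Abcb1a was at least 5.64-fold higher. Trap1, which also overlaps Dnase1, did not reach 2-fold (-0.29 ± 0.042), nor did Mlx over Psmc3ip (-0.20 ± 0.051).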

How the data were processed

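Total RNA of 18 LGs was depleted of ribosomal RNA and read as paired ends of 75 bases. Per the labels and the study's methods, the authors used cutadapt for trimming and STAR for alignment to GRCm38, and deposited raw HTSeq counts per gene, the values used here. The rule for reads with several matches, the strand setting and the annotation release are not given in the sources used here. A second deposited table of log2 values was not used.

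Library totals ranged from 49480781 to 103936830 counts. For genes with many counts the 3 mice of a group, not the depth, limit the precision. Each sample is 1 mouse, and the mice were treated as unpaired. CPM was 1e6 times the count over the column sum. Fits used R 4.3.3 and edgeR 4.0.16, with TMM normalization, filterByExpr, the robust quasi-likelihood test and Benjamini-Hochberg adjustment over all genes tested, and calls needed an FDR under 0.05 and a fold of at least 2. The 4M contrast used the 9 NOD.H-2b mice, and strain differences all 18 mice in 6 groups. These fits were also run on simulated counts, which had the same dispersion for all genes and left out genes with low mean counts. No result here rests on that run. TMM factors were 0.872 to 0.995 in BALB/c and 1.01 to 1.30 in NOD.H-2b, with the highest in NOD.H-2b 6M replicate 1. For 18, 6 and 11 members that mouse was the lowest, the middle and the highest of the 3 at 6M. Where a strain had at most 3 counts in every mouse, folds are lower bounds against 3 counts per mouse, which cover counting error only.

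Names, classes and coordinates are those of GENCODE M21. Source genes and other relatives came from BLAST+ 2.17.0 of GENCODE transcripts (E-value at most 1e-10, at least 50% of the member). Summed CPM of marker lists (plus 0.001, log2) was compared by two-sided exact permutation in scipy 1.17.1. The lists were B cell, T cell, plasma cell, macrophage, gland epithelium, skeletal muscle, adipocyte, salivary gland, erythroid, Schwann cell, neuron and liver.

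Named genes are the members called at 4M, the 15 coding members, the 5 other members with the highest mean NOD.H-2b CPM, members within 250 kb of another, the 2 genes on each side of each limit, the 5 neighbours each way with the largest called changes, and the families of named coding members. Other members, relatives and overlapping genes, Fgb among the neighbours, were named after their values were seen. The result for 1 overlapping gene is not reported here. The members and lists were chosen with earlier results of these data known. Alternatives were DESeq2 1.42.0 (Wald test, size factors), other filters, limits and windows, the replicate number as a block, and leaving out each mouse in turn. Those for source genes, the liver list and the neighbours without Gm15821 were chosen after seeing the data.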

Additional observations from a re-analysis of the deposited data

Results flagged for a closer look

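For 2 genes and 1 marker list, every NOD.H-2b mouse stood above every BALB/c mouse at one age and below at another. These opposite differences were found on TMM-scaled CPM by looking through 112 genes and lists of 3 ages each, and the difference between the ages was not tested. Abcb8, a mitochondrial transporter of the family of Abcb1a, had a log2 ratio of NOD.H-2b to BALB/c of 0.263 at 2M and -0.173 at 6M. Gm30097, a long noncoding gene that overlaps Fgg on the other strand, had a ratio of 0.353 at 2M and -0.992 at 6M. The summed gland epithelium markers had a ratio of 0.318 at 2M and -0.181 at 6M. On CPM by library total the same markers were not below BALB/c at 6M, with a log2 difference of 0.21 and an exact permutation p of 0.1, so that the direction at 6M turns with the scaling. Groups of 3 mice are too small to look for a single mouse that stands apart.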

How the results depend on the processing

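Of 845 alternatives over all results, 806 kept the direction and the call. The number of members, 35, became 63 with a fold of 4 and 21 with a fold of 16 between strains, in each case by the construction of the limit, and between 34 and 39 without any 1 mouse. On TMM or DESeq2 scaling it was 30 or 29, of which 28 were the same genes in each case.

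No member was called at 4M under any alternative, leave-one-out included. The count over all genes was less stable: 38 higher became 215 with DESeq2's Wald test, 122 with all 18 mice, 17 with at least 10 counts in every sample and 81 with no filter, and ranged from 17 (without 6M replicate 2) to 68 (without 2M replicate 2) when 1 mouse was left out. The 2 lower became 34, 24, 1 and 12 under the same settings, 25 with no threshold on the fold, and 1 to 10 without 1 mouse. The replicate numbers did not pair the mice, since 9 of 45 same-numbered pairs deviated together with r over 0.1 (mean r 0.006, and -0.003 for other numbers). With the replicate block, 23 genes were higher and 3 lower at 4M, and it changed no other call.

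Of the neighbours, 39 were higher and 15 lower, and these became 18 and 6 with at least 10 counts in every sample, 21 and 7 within 50 kb, and 76 and 24 within 250 kb, where fewer or more genes were tested. With no threshold on the fold 46 were lower. Without 1 mouse the counts were 36 to 40 and 14 to 15. Family counts ran from 6 to 9 higher and from 4 to 5 lower, and the counts of source genes stayed at 1 and 3. Klk1b1 also lost its call with no filter on low counts (adjusted p = 0.0769). The summed salivary gland markers, 0.07 (log2, 6M minus 2M in NOD.H-2b), turned to -0.049 with DESeq2 size factors and ranged from -0.17 to 0.37 without 1 mouse (negative also at -0.005 and -0.11), with an exact permutation p of at least 0.8 where the sign turned. Where not stated, the cause of a change was not tested.

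Depth limits the BALB/c side: 13 members had at most 10 counts in every BALB/c mouse, so their folds are imprecise, and a level of 0 there means only that it was below about 3 counts.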

Other observations

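Schwann cell markers summed to medians of 37.5, 38.6 and 41.0 CPM at 2M, 4M and 6M in NOD.H-2b and of 30.7, 33.4 and 30.6 CPM in BALB/c. Erythroid markers had medians of 62.3, 85.3 and 53.1 CPM in NOD.H-2b and of 28.6, 34.0 and 34.5 CPM in BALB/c. Both lists are on CPM by library total, and on TMM-scaled CPM the strains overlapped at 4M and 6M in each. Hba-a2, a member of the erythroid list, went the other way, with at most 0.0396 CPM in any NOD.H-2b mouse and at least 0.928 CPM in any BALB/c mouse. Adipocyte markers were between 2.10 and 5.82 CPM in every mouse of NOD.H-2b and between 2.30 and 5.15 CPM in BALB/c, and skeletal muscle markers did not exceed 1.32 CPM in any mouse, with 2 of 6 at no more than 3 counts throughout.

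With the strains exchanged, the 27 genes low in NOD.H-2b included Hba-a2. They also included Uox, urate oxidase, with no count in NOD.H-2b and a mean of 1.27 CPM in BALB/c, and Lzts1, a leucine zipper protein, with means of 0.429 and 33.2 CPM. Gm5886, the closest relative of Gm43974, was also among these 27 genes, with a mean of 0.0204 CPM in NOD.H-2b against 10.7 CPM in BALB/c. These genes were chosen by their values, and named after these were seen.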
